A study of Mus musculus with 24 samples.

Results

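The ribonuclease genes Ear3, Ear2, Ear1, Rnase1, Rnase4 and Ang, together with Ccnb1ip1, belong to a region of mouse chromosome 14 and were followed across crypts and villi of the small intestine. They were picked as a list of 7 names, with their levels in the genotypes of this study already known. Of the 7 genes, 5 had at least 1 probe set under their own name, giving 7 probe sets of 45101 on each Affymetrix array: 1 each for Ear3 (1422412_x_at), Rnase1 (1416523_at), Rnase4 (1422603_at) and Ccnb1ip1 (1435998_at), and 3 for Ang (1438936_s_at, 1438937_x_at and 1450717_at). No probe set carried the name Ear1 or Ear2 in the annotation used here, and no probe set named a listed gene beside others. No filter on low values was applied, so all 7 probe sets stayed in every comparison.

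The secreted ribonucleases of the RNase A superfamily cut single-stranded RNA and take part in digestion, host defence and vessel growth. Rnase1 encodes the pancreatic-type enzyme, which is also made by endothelium. The Ear genes encode the eosinophil-associated ribonucleases, a rodent family that multiplied by gene duplication. Rnase4 and Ang, the angiogenin gene, share a transcription start region, and Ang4 is a relative made in Paneth cells. Ccnb1ip1, also called Hei10, is no ribonuclease: it encodes a RING-finger protein that marks crossover sites in meiosis.

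The study profiled 24 arrays in 8 groups of 3, crypts and villi of each of 4 genotypes. QKO intestine lacked E2f1, E2f2, E2f3 and Rb, TKO intestine lacked E2f1, E2f2 and E2f3, Rb intestine lacked Rb (the gene Rb1), and WT intestine was wild type. All mice were 2 months old, of a mixed C57BL/6 and FVB background, and all, WT included, had received beta-naphthoflavone, an agonist of the aryl hydrocarbon receptor, into the peritoneum 7 days before harvest. How each gene was deleted, whether animals were pooled, and which strain's chromosome 14 a mouse carried are not stated in the labels. Crypt and villus preparations are bulk tissue, so fewer cells of a type and less RNA per cell cannot be told apart, and p-values measure the spread between these arrays.

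Several array-wide facts bear on every genotype comparison below. The 12 bacterial poly-A control probe sets, RNAs added before labelling, averaged 10.85 ± 0.72 over the TKO and QKO arrays and 6.14 ± 0.55 over the WT and Rb arrays (log2, SD, n = 12 each), with no overlap, so the handling of the arrays and the loss of E2f1-3 cannot be told apart. The level of Rb1 went against the label on 2 arrays: the array labelled WT crypts 3 was the lowest of its group at 8.46, and that labelled Rb crypts 2 the highest of its group at 10.25. By the Y-linked transcript Eif2s3y, 3 of 3 QKO arrays and 2 of 3 TKO arrays in each compartment were male. So were 2 of 3 Rb villi arrays and no other array. The part of sex in the results was not tested. The epithelial markers Epcam (13.0 to 13.9) and Vil1 (12.7 to 13.6) were high on all 24 arrays. The median of all values lay at 5.05, and replicates within a group correlated at 0.98 to 0.99.

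Positions are those of the RefSeq table for GRCm38.p6, since the deposited values name no genome build. Ear1 spans chr14:43818765-43819639 and Ear2 chr14:44102654-44103531. Ccnb1ip1 lies 6.687 Mb further on at chr14:50789249-50795728. Ang (chr14:51091077-51102009) and Rnase4 (chr14:51091077-51106151) begin at the same base, and Rnase1 (chr14:51145002-51146767) lies 0.356 Mb from Ccnb1ip1. Rb1, one of the deleted genes, is on the same chromosome at chr14:73192858-73325951, 22.048 Mb beyond Rnase1, whereas E2f1, E2f2 and E2f3 are on chromosomes 2, 4 and 13. The table used here held no row for Ear3, which is therefore given no position.

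The 250 bases before the start of Ear1 and of Ear2 are shown because they tell how alike the upstream windows of these copies are. The windows lie outside the transcripts, so they do not tell what a probe set can match. The sequences, from RefSeq (GRCm38.p6), run 5′ to 3′ on the gene's own strand, chr14:43819640-43819889 on the minus strand for Ear1 and chr14:44102404-44102653 on the plus strand for Ear2. Capitals mark the 2 bases that differ when the windows are set against each other at an offset of 2 bases; the other 246 of the 248 bases compared are equal.
Ear1: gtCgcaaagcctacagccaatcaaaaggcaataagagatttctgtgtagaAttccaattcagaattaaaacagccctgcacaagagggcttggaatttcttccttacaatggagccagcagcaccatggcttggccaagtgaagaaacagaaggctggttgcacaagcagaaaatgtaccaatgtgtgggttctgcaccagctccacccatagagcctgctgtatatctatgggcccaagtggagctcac
Ear2: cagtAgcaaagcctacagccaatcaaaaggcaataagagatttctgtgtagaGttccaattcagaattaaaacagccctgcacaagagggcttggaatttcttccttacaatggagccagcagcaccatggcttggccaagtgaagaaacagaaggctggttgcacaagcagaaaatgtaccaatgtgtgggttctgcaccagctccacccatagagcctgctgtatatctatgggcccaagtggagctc

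The suffixes _x_at and _s_at mark, by the array maker's convention, probes that can match more than 1 transcript. The value named Ear3, and 2 of the 3 named Ang, may therefore hold signal of close relatives.

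Ear3 was the member with the widest range. On the log2 scale it read 8.55, 9.37 and 8.08 in QKO crypts, 3.04, 2.87 and 3.05 in TKO crypts, 9.80, 9.28 and 8.89 in Rb crypts, and 9.00, 9.56 and 9.63 in WT crypts. In villi it read 7.28, 8.02 and 7.46 in QKO, 3.26, 3.37 and 3.15 in TKO, 8.71, 9.41 and 8.54 in Rb, and 8.87, 9.05 and 8.59 in WT. All 6 TKO arrays, from 2.87 to 3.37, stood below the other 18 arrays, which ran from 7.28 to 9.80. QKO arrays, which lack the same 3 E2f genes and Rb besides, were with the Rb and WT arrays in the upper range.

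The TKO values lay in the range of probes with nothing to bind. Unspiked control probe sets (TrpnX) read 2.68 to 3.41 on the TKO arrays. Ear3 lay between percentiles 3.28 and 6.36 of all probe sets on the TKO crypt arrays and between 8.93 and 13.98 on the TKO villus arrays, against 73.7 to 91.8 on the other arrays. As a description of the values that helped choose the gene, Ear3 differed in TKO minus WT by -6.41 in crypts and -5.57 in villi (log2, 84.9-fold and 47.6-fold), and in QKO minus TKO by 5.68 and 4.33. Since the TKO values sat among the controls, these folds do not measure how low the transcript was. QKO minus Rb was -0.66 in crypts and -1.30 in villi.

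Eosinophil markers stayed low on all arrays. The mean of the 7 measured markers of 8 listed ran from 3.47 to 4.10 over all 24 arrays. The granule protein genes Prg2 (3.56 to 4.36) and Epx (3.43 to 4.42) stayed in a narrow range near the bottom of the scale. The list had 0 calls by limma in TKO minus WT crypts and 1 lower, Siglecf, in villi.

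**Figure D1:**
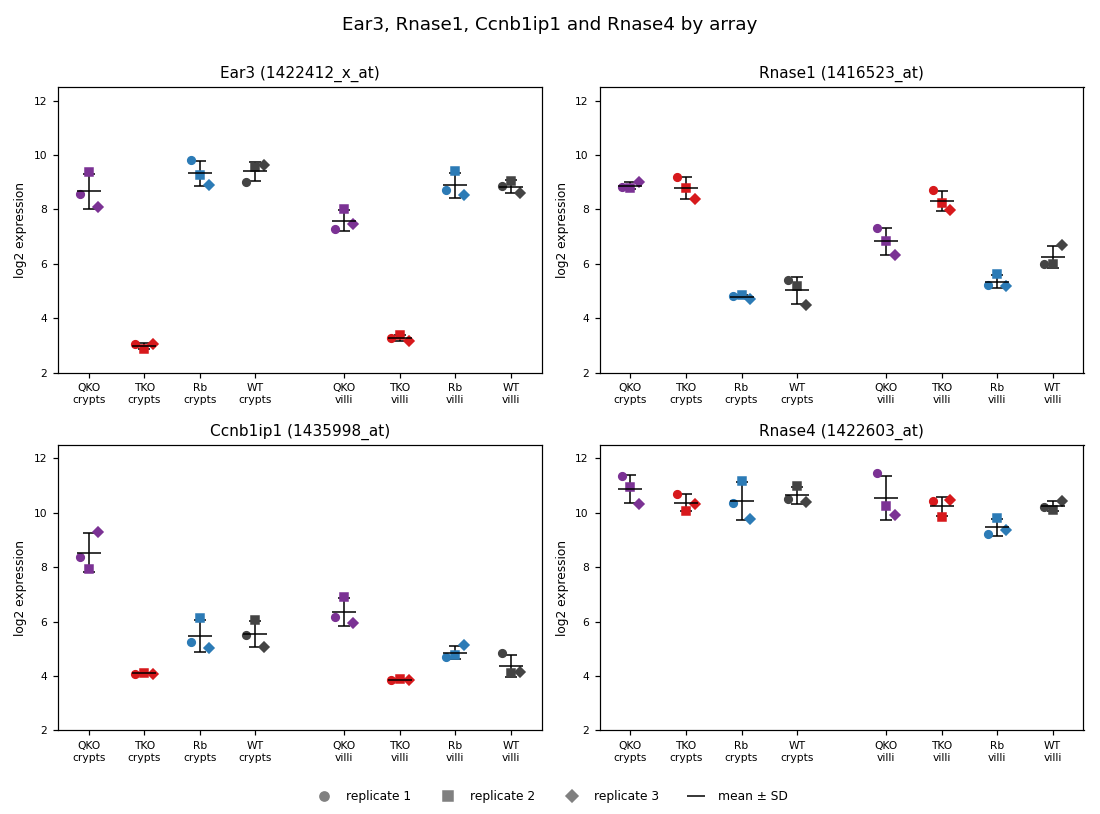
Log2 expression (vertical axis) of Ear3, Rnase1, Ccnb1ip1 and Rnase4 on each of 24 arrays by group; symbols give the replicate number, lines the mean ± SD of 3 arrays. Ear3 is at 2.87 to 3.37 on the 6 TKO arrays and at 7.28 or more on the others. Rnase1 is at 6.34 or more on all TKO and QKO arrays, while WT villi reach 6.71. Ccnb1ip1 is highest in QKO crypts.

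Rnase1 divided the crypt arrays by E2f status. In crypts it read 8.83, 8.78 and 9.02 in QKO, 9.19, 8.80 and 8.37 in TKO, 4.82, 4.84 and 4.72 in Rb, and 5.42, 5.20 and 4.48 in WT. Its villus values were 7.32, 6.84 and 6.34 in QKO, 8.72, 8.24 and 7.97 in TKO, 5.21, 5.63 and 5.20 in Rb, and 6.01, 6.00 and 6.71 in WT. In crypts the 6 arrays without E2f1-3 all lay above the 6 with them. In villi QKO and WT overlapped, at 6.34 for the lowest QKO array and 6.71 for the highest WT array.

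Described in differences, Rnase1 was higher in TKO than in WT by 3.75 in crypts and 2.07 in villi (log2, 13.5-fold and 4.19-fold), and higher in QKO than in Rb by 4.08 and 1.48 (17.0-fold and 2.80-fold). QKO minus TKO was 0.09 in crypts and -1.48 in villi. The order of group means was QKO crypts, TKO crypts, TKO villi, QKO villi, WT villi, Rb villi, WT crypts and Rb crypts. Neighbours in that order overlapped by array, except TKO villi above QKO villi and WT villi above Rb villi.

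The 250 bases before the Rnase1 start (RefSeq, GRCm38.p6, chr14:51146768-51147017, minus strand) are shown because this member divided the crypt arrays by E2f status. No capitals are set, since none of the motifs searched was found in them.
Rnase1: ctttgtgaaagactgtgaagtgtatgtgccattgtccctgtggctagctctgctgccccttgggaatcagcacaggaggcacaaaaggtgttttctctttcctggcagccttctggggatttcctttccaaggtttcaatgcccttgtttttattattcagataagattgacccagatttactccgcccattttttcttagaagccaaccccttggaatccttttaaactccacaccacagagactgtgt

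Ccnb1ip1 was high where Rb and E2f1-3 were lost together. It read 8.38, 7.94 and 9.31 in QKO crypts, 4.09, 4.13 and 4.07 in TKO crypts, 5.24, 6.15 and 5.03 in Rb crypts, and 5.51, 6.05 and 5.07 in WT crypts. The villus arrays read 6.17, 6.92 and 5.94 in QKO, 3.86, 3.88 and 3.86 in TKO, 4.70, 4.76 and 5.14 in Rb, and 4.85, 4.11 and 4.16 in WT. In each compartment the 3 QKO arrays were the highest and the 3 TKO arrays the lowest, so that the same loss of E2f1-3 stood beside opposite levels with and without Rb.

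The described differences were 3.07 in crypts and 1.47 in villi for QKO minus Rb (log2, 8.40-fold and 2.78-fold), -1.45 and -0.50 for TKO minus WT, and 4.45 and 2.48 for QKO minus TKO. TKO values were close to each other, with an SD of 0.03 in crypts and 0.01 in villi (n = 3 each), against 0.70 in QKO crypts and 0.51 in QKO villi. The crypt order of QKO, WT, Rb and TKO became QKO, Rb, WT and TKO in villi, with WT and Rb arrays overlapping in both.

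Pancreatic acinar genes were raised on 2 of the QKO crypt arrays on which Ccnb1ip1 was high. The mean of the 9 measured acinar markers of 11 listed was 9.07, 6.56 and 9.02 on QKO crypts 1, 2 and 3, and 5.75 to 6.54 on the other 21 arrays. Of the 9 markers, 8 were higher by limma in QKO minus Rb crypts, where 14.1% of all probe sets were called. Without QKO crypts 1 and 3, the Ccnb1ip1 difference was 2.47 for QKO minus Rb crypts and 3.85 for QKO minus TKO crypts, and that of Rnase1, itself a pancreatic enzyme gene, was 3.99 for QKO minus Rb crypts. On the villus arrays the acinar mean was at most 6.54. The acinar marker Cpa1 read at least 5.12 on the QKO crypt arrays and 4.45 to 5.03 on the QKO villus arrays. On the arrays of the other genotypes Cpa1 read at most 4.51. QKO crypts 2 and the QKO villi therefore cannot be taken as free of acinar transcript. The part of acinar tissue in the crypt and villus values was not tested.

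**Figure D2:**
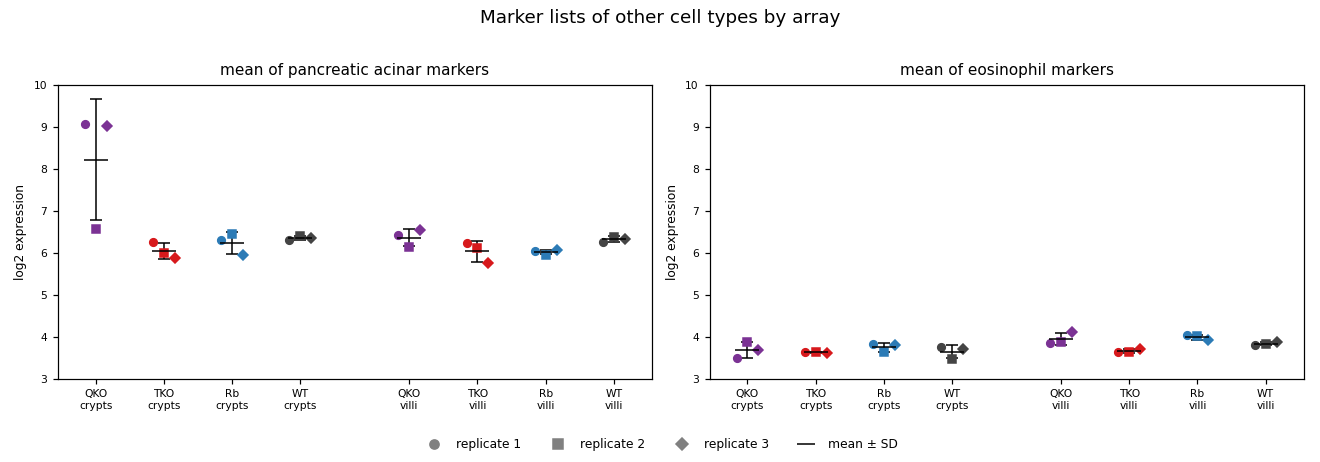
Mean log2 expression (vertical axis) of 9 pancreatic acinar markers and of 7 eosinophil markers on each array by group; symbols give the replicate number, lines the mean ± SD of 3 arrays. The acinar mean is 9.07 and 9.02 on QKO crypts 1 and 3 and at most 6.56 elsewhere; the eosinophil mean stays between 3.47 and 4.10.

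The 250 bases before the Ccnb1ip1 start (RefSeq, GRCm38.p6, chr14:50795729-50795978, minus strand) are shown because they alone, of the windows read, held a searched motif, GCGTG in capitals, which begins 158 bases before the start. GCGTG is the core of the element that the aryl hydrocarbon receptor binds.
Ccnb1ip1: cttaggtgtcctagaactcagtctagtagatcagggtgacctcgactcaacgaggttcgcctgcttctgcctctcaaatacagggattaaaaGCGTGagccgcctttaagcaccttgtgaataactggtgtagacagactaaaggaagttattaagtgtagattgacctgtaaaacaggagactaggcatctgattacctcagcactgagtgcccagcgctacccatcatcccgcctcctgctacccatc

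The motifs searched on both strands of these windows were TATAAA, the E2F words TTTCCCGC, TTTCGCGC, TTTGCCGC and TTTGGCGC, and GCGTG. The single match found overlapped no other. Among 32851 promoter windows of the table, 12.4% held TATAAA, 1.86% held an E2F word and 28.2% held GCGTG. No TATAAA or E2F word was found before Ear1, Ear2, Ccnb1ip1, Rnase1, Rnase4 (both windows) or Ang, which says only that these letters are not in these windows. All groups received the receptor agonist, so no comparison here bears on GCGTG.

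Rnase4 and Ang begin at the same base, so 1 window is the same for both (RefSeq, GRCm38.p6, chr14:51090827-51091076, plus strand). It is shown as the window these members have in common. The table holds a second Rnase4 window, chr14:51095750-51095999 on the plus strand, which Ang does not share and which is not printed.
Rnase4 and Ang: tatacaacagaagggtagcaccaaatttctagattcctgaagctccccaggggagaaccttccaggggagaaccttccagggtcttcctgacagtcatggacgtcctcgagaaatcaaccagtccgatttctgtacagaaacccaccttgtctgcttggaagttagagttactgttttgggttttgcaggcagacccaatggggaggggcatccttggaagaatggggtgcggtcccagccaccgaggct

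Rnase4 showed no split of the arrays by E2f status. It read 11.37, 10.94 and 10.34 in QKO crypts, 10.69, 10.08 and 10.34 in TKO crypts, 10.35, 11.18 and 9.78 in Rb crypts, and 10.51, 11.00 and 10.41 in WT crypts. In villi it read 11.48, 10.24 and 9.93 in QKO, 10.44, 9.85 and 10.46 in TKO, 9.22, 9.80 and 9.37 in Rb, and 10.21, 10.10 and 10.44 in WT. All crypt groups overlapped, and in villi only the Rb arrays lay apart, below every other villus array. TKO minus WT was -0.27 in crypts and 0.00 in villi, and QKO minus Rb was 0.45 and 1.09 (log2).

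Ang, the angiogenin gene, had its highest group means in TKO by each of its 3 probe sets, but only 2 of them set the TKO arrays apart from all others. The probe set 1438936_s_at read 6.19, 6.71 and 6.18 in QKO crypts, 9.83, 9.32 and 9.62 in TKO crypts, 7.57, 8.21 and 5.80 in Rb crypts, and 7.70, 8.06 and 7.56 in WT crypts. The villus values were 6.37, 5.80 and 6.23 in QKO, 9.57, 9.19 and 9.73 in TKO, 6.65, 6.57 and 6.81 in Rb, and 6.64, 7.25 and 7.20 in WT. Every TKO array lay above every array of the other genotypes, and the QKO arrays of each compartment were below those of WT.

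The probe set 1438937_x_at set the TKO arrays apart in the same way. It read 5.73, 6.32 and 5.71 in QKO crypts, 8.79, 8.67 and 8.80 in TKO crypts, 5.60, 6.36 and 5.09 in Rb crypts, and 6.50, 7.01 and 6.22 in WT crypts. On villus arrays it read 4.80, 5.08 and 5.31 in QKO, 8.69, 8.33 and 8.82 in TKO, 6.49, 6.79 and 6.51 in Rb, and 6.67, 6.77 and 6.64 in WT. All 6 TKO arrays stood above all others, and after centring each profile on its mean the root mean square difference between both probe sets over 24 arrays was 0.53.

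The third, 1450717_at, had a narrower range. It read 5.96, 6.63 and 6.08 in QKO crypts, 7.26, 6.93 and 6.80 in TKO crypts, 6.10, 6.79 and 6.03 in Rb crypts, and 6.29, 6.58 and 6.14 in WT crypts. In villi the values were 5.43, 5.77 and 5.84 in QKO, 7.01, 6.69 and 7.09 in TKO, 6.10, 6.64 and 6.17 in Rb, and 6.96, 6.70 and 7.05 in WT. TKO and WT overlapped in villi, and the centred profile differed from those of the other Ang probe sets by 1.02 and 0.90.

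The 3 probe sets thus disagreed on the size of the Ang difference. TKO minus WT was 1.81 in crypts and 2.46 in villi by 1438936_s_at, 2.18 and 1.92 by 1438937_x_at, and 0.66 and 0.03 by 1450717_at. QKO minus TKO was -3.23 and -3.36, -2.83 and -3.54, and -0.77 and -1.25, in the same order. The probe sets with the larger differences are those whose suffix allows a match to more than 1 transcript.

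**Figure D3:**
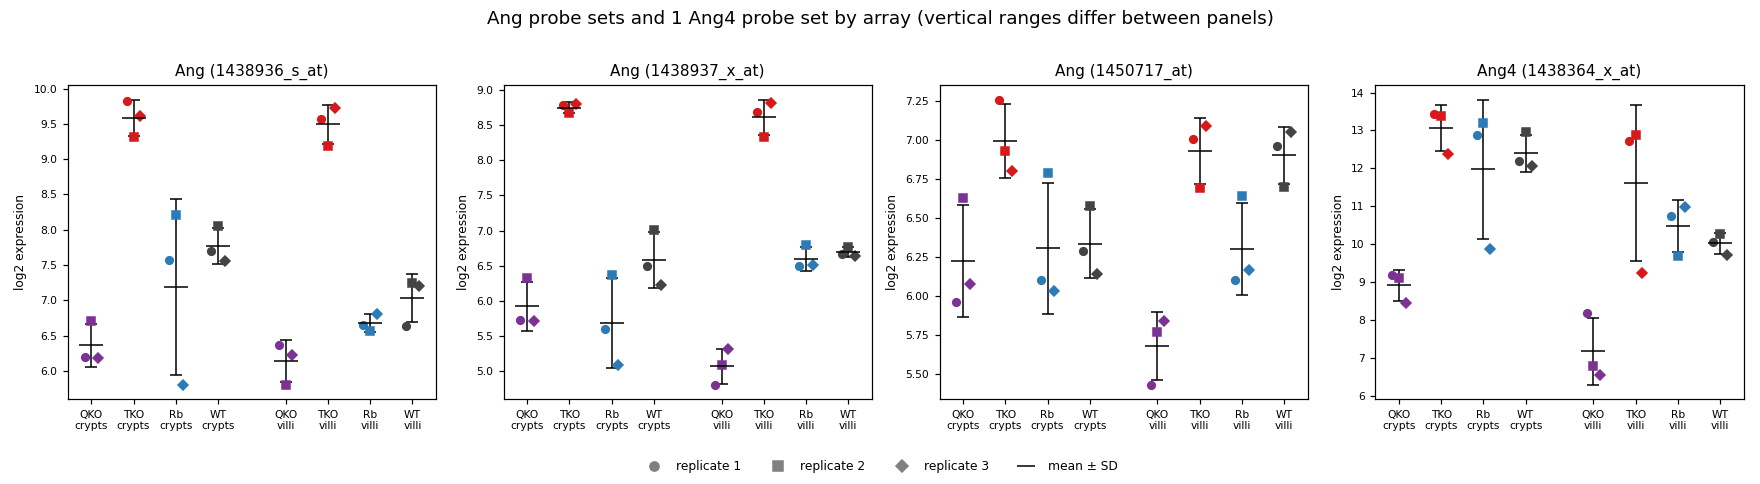
Log2 expression (vertical axis, with a range of its own in each panel) of the 3 Ang probe sets and 1 Ang4 probe set on each array by group; symbols give the replicate number, lines the mean ± SD of 3 arrays. TKO arrays are above all others for 1438936_s_at and 1438937_x_at but overlap WT villi for 1450717_at; Ang4 is lowest in QKO.

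Over all 7 probe sets, 5 passed limma's threshold (adjusted p under 0.05) in TKO minus WT crypts and 4 in villi, where 6.77% and 6.38% of all 45037 probe sets tested did. In QKO minus Rb 2 passed in crypts and 6 in villi, where 14.1% and 17.1% of all probe sets did. In QKO minus TKO 4 passed in crypts and 6 in villi, where 0.768% and 5% did. The genes were chosen with these differences known, so nothing is read from these counts, and no p-value is given for them.

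The loss of Rb alone, a comparison not known to have served in choosing the genes, put 1 of the 7 probe sets past the threshold in villi and none in crypts. In Rb minus WT crypts limma called 0 of 7 probe sets, and 0% of all probe sets, with 1 of the 7 at an unadjusted p under 0.05. The differences there ran from -0.90 to -0.03. Both arrays on which Rb1 went against the label, WT crypts 3 and Rb crypts 2, were in this comparison. Its lack of calls is therefore not read as an absence of change with the loss of Rb. Without both arrays, 1 probe set was called. The share of all probe sets called was not recorded for this or any later alternative, so nothing is read from a changed count. In Rb minus WT villi 1 of 7 was called, against 9.97% of all probe sets: Rnase1 averaged 5.35 ± 0.25 in Rb villi and 6.24 ± 0.41 in WT villi (SD, n = 3 each), a difference of -0.89 ± 0.27 (SE, adjusted p = 0.0364). All 3 Rb villi arrays were below all 3 WT villi arrays. The call was lost with arrays centred on their medians, and without WT villi 3, Rb villi 1 or Rb villi 3, with differences of -0.85, -0.66, -0.82 and -0.82; without Rb villi 2, 2 probe sets were called.

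The position along the crypt-villus axis was the second comparison tested. Its groups also enter the genotype differences known when the genes were chosen, so its p-values are not free of that choice. In WT intestine 3 of 7 probe sets were called, where 29.4% of all probe sets were. Rnase1 averaged 6.24 ± 0.41 in WT villi and 5.03 ± 0.49 in WT crypts, higher in villi by 1.21 ± 0.27 (SE, adjusted p = 0.00154). Ccnb1ip1 was lower, at 4.37 ± 0.42 in WT villi and 5.54 ± 0.49 in WT crypts (-1.17 ± 0.32, adjusted p = 0.00836), a call lost without WT crypts 2 (-0.92). Ang 1450717_at was higher by 0.57 ± 0.22 with an adjusted p of 0.0499988, at the threshold, and lost the call under 6 of 13 alternatives, among them the omission of WT crypts 1, WT crypts 3, WT villi 1 or WT villi 3, with differences of 0.47 to 0.55. The other Ang probe sets were not called and did not share that size or, for 1 of them, that sign: 1438936_s_at differed by -0.74 (adjusted p = 0.141), with all WT villus arrays below all WT crypt arrays, and 1438937_x_at by 0.11 (adjusted p = 0.771).

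In Rb intestine 1 of 7 probe sets was called between villi and crypts, where 13.1% of all were. Ang 1438937_x_at averaged 6.60 ± 0.17 in Rb villi and 5.68 ± 0.64 in Rb crypts, a difference of 0.92 ± 0.25 (SE, adjusted p = 0.0167). The other Ang probe sets were not called: 1438936_s_at differed the other way, by -0.52 (adjusted p = 0.425), and 1450717_at by -0.0034 (adjusted p = 0.996). The call of 1438937_x_at was lost without Rb crypts 1, Rb crypts 3 or Rb villi 2, with differences of 0.87, 0.62 and 0.82; without Rb crypts 3, 2 other probe sets were called. In TKO intestine 0 of 7 were called by limma, and 0 had an unadjusted p under 0.05, where 8.33% of all probe sets were called. The TKO differences ran from -0.48 for Rnase1 to 0.28 for Ear3. Crypt and villus arrays of the same number deviated together in TKO, and within these pairs some differences had 1 sign: -0.47, -0.56 and -0.40 for Rnase1, -0.22, -0.25 and -0.21 for Ccnb1ip1, and 0.22, 0.50 and 0.11 for Ear3. With the replicate number as a block, 0 of 7 were called as well. Ear3 lay among the unspiked controls on the TKO arrays, so no TKO gradient can be read for it.

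In QKO intestine 4 of 7 probe sets were called between villi and crypts, all lower in villi, where 25% of all probe sets were called and 14.6% were lower. With the replicate number as a block, 5 were called. QKO crypts, the highest group for Rnase1 and Ccnb1ip1, also enter QKO minus Rb and QKO minus TKO. Those differences were known when the genes were chosen, so the p-values for QKO are not free of that choice. Rnase1 averaged 6.83 ± 0.49 in QKO villi and 8.87 ± 0.13 in QKO crypts (-2.04 ± 0.27, adjusted p = 1.58e-05). Ccnb1ip1 averaged 6.34 ± 0.51 in QKO villi and 8.54 ± 0.70 in QKO crypts (-2.20 ± 0.32, adjusted p = 4.38e-05). For both, all 3 villus arrays were below all 3 crypt arrays, and the call stood under each of 15 alternatives run. Rnase1 thus ran the other way along the axis in QKO than in WT, which was not tested as a difference.

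The other 2 QKO calls were less steady. Ear3 averaged 7.59 ± 0.39 in QKO villi and 8.67 ± 0.65 in QKO crypts (-1.08 ± 0.29, adjusted p = 0.00725), and Ang 1438937_x_at 5.07 ± 0.25 in QKO villi and 5.92 ± 0.34 in QKO crypts (-0.85 ± 0.25, adjusted p = 0.0135). Without QKO crypts 2 the differences were -0.73 and -0.66 and both calls were lost; that of Ang was also lost without QKO villi 1 (-0.72), and that of Ear3 with array weights (-0.63). In the same comparison 7 of the 9 acinar markers were lower in QKO villi. QKO crypts 1 and 3 had the highest acinar means, and leaving them out was chosen after seeing the data. Without them Rnase1 differed by -1.95, Ccnb1ip1 by -1.59, Ear3 by -1.78 and Ang 1438937_x_at by -1.25. These values rest on a lone QKO crypt array, so no p-value is given for them. The part of acinar tissue was not tested. Of 7 macrophage markers, 3 were higher in QKO villi than in QKO crypts, and their part was not tested.

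**Figure D4:**
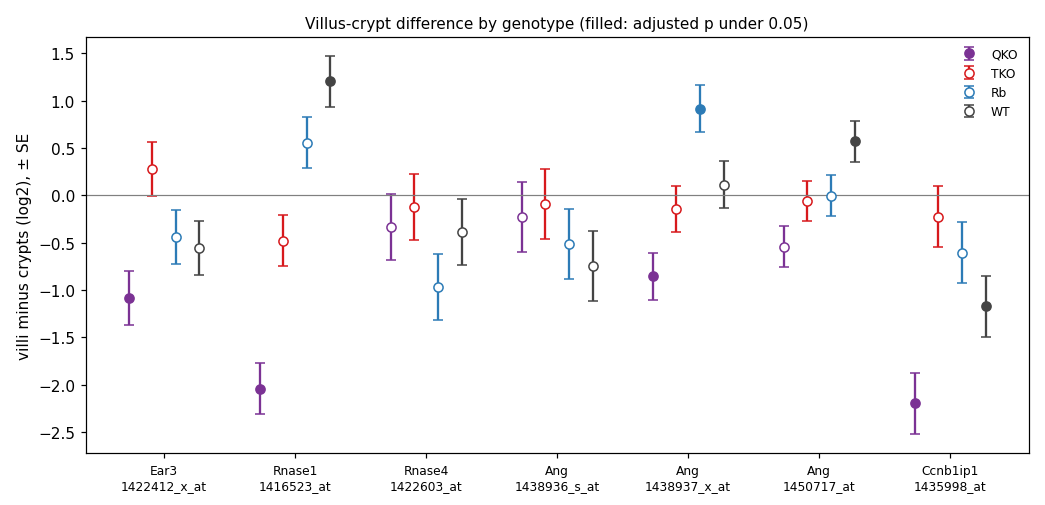
Villi minus crypts (log2 difference ± SE, vertical axis) of each probe set in QKO, TKO, Rb and WT intestine; filled points passed limma's adjusted p under 0.05. Rnase1 is at -2.04 in QKO and 1.21 in WT, and all 7 QKO points are below 0.

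Whether the villus-crypt difference itself depended on genotype was tested with an interaction term. For Rb against WT, 0 of 7 probe sets were called by limma, where 3.01% of all probe sets were, and 1 had an unadjusted p under 0.05. For QKO against TKO, 0 of 7 were called, where 0.0488% of all were. The terms of largest size were -1.97 for Ccnb1ip1, -1.56 for Rnase1 and -1.36 for Ear3. The TKO values of Ear3 lay among the unspiked controls. The term for QKO against TKO is QKO minus TKO in villi less QKO minus TKO in crypts. The genes were chosen with these differences known, so nothing is read from its counts, and no p-value is given. Without Rb crypts 2, 1 probe set was called for Rb against WT, and without QKO villi 1, 1 was called for QKO against TKO.

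Genes next to the members on the chromosome give the setting of their pattern. The window ran from Gm10377 to Slc39a2, 15 protein-coding genes beyond Ear1 and Rnase1, and held 60 measured genes besides the members, taken at their brightest probe set and chosen by position alone. Of these, 6 were called in TKO minus WT crypts (2 higher, 4 lower), 8 in TKO minus WT villi (5 higher, 3 lower), 4 in QKO minus Rb crypts (3 higher, 1 lower) and 7 in QKO minus Rb villi (2 higher, 5 lower). The shares of all genes called in these comparisons were 5.44%, 8.48%, 16% and 20.4%. The median difference of the neighbours was -0.02, -0.04, 0.00 and -0.01, against 0.02, -0.03, 0.05 and 0.08 for all genes. In these comparisons 20 neighbours were called at least once and 0 in all 4. Single arrays moved these counts: TKO minus WT villi had 4 without WT villi 1 and 5 without WT villi 2, TKO villi 1 or TKO villi 2, QKO minus Rb crypts had 8 without Rb crypts 2, and QKO minus Rb villi had 4 without Rb villi 2 or Rb villi 3.

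Only Cgrrf1, a RING-finger gene, was called in both crypt comparisons. It averaged 8.76 ± 0.04 in TKO crypts and 7.80 ± 0.05 in WT crypts (0.97 ± 0.16, SE, adjusted p = 0.000989), and 8.69 ± 0.23 in QKO crypts and 7.74 ± 0.32 in Rb crypts (0.95 ± 0.16, adjusted p = 0.000451). In villi Gmfb and the replication factor gene Wdhd1 were called in both. Gmfb was lower in both, by -0.37 in TKO minus WT and by -0.32 in QKO minus Rb. Wdhd1 was higher in TKO than in WT villi, at 7.76 ± 0.06 and 6.46 ± 0.15 (1.31 ± 0.21, adjusted p = 0.000468), and lower in QKO than in Rb villi, at 7.42 ± 0.21 and 8.68 ± 0.08 (-1.27 ± 0.21, adjusted p = 0.000295).

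Further neighbours were called in 1 genotype comparison each or in both compartments of it. In TKO minus WT, ccdc198 differed by 2.13 ± 0.56 in crypts and 1.99 ± 0.56 in villi (SE, adjusted p = 0.0226 and 0.0323), but its TKO arrays were split, at 7.17, 6.28 and 3.98 in crypts and 6.22, 6.32 and 3.98 in villi. Bmp4, a signalling ligand of the stroma around crypts, was lower by -0.74 ± 0.14 and -0.79 ± 0.14 (adjusted p = 0.00237 and 0.00107). Ttc5 (-0.62) and Peli2 (-0.54) were lower in TKO crypts, and the repair endonuclease gene Apex1 (1.29) was higher in TKO villi. In QKO minus Rb, Ktn1 (0.62) and Naa30 (0.48) were higher in crypts and 4930572G02Rik (-0.56) was lower. In QKO minus Rb villi the phosphatase gene Cdkn3 (-1.39) and Txndc16 (-1.33) were lower and Fbxo34 (0.41) was higher.

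**Figure D5:**
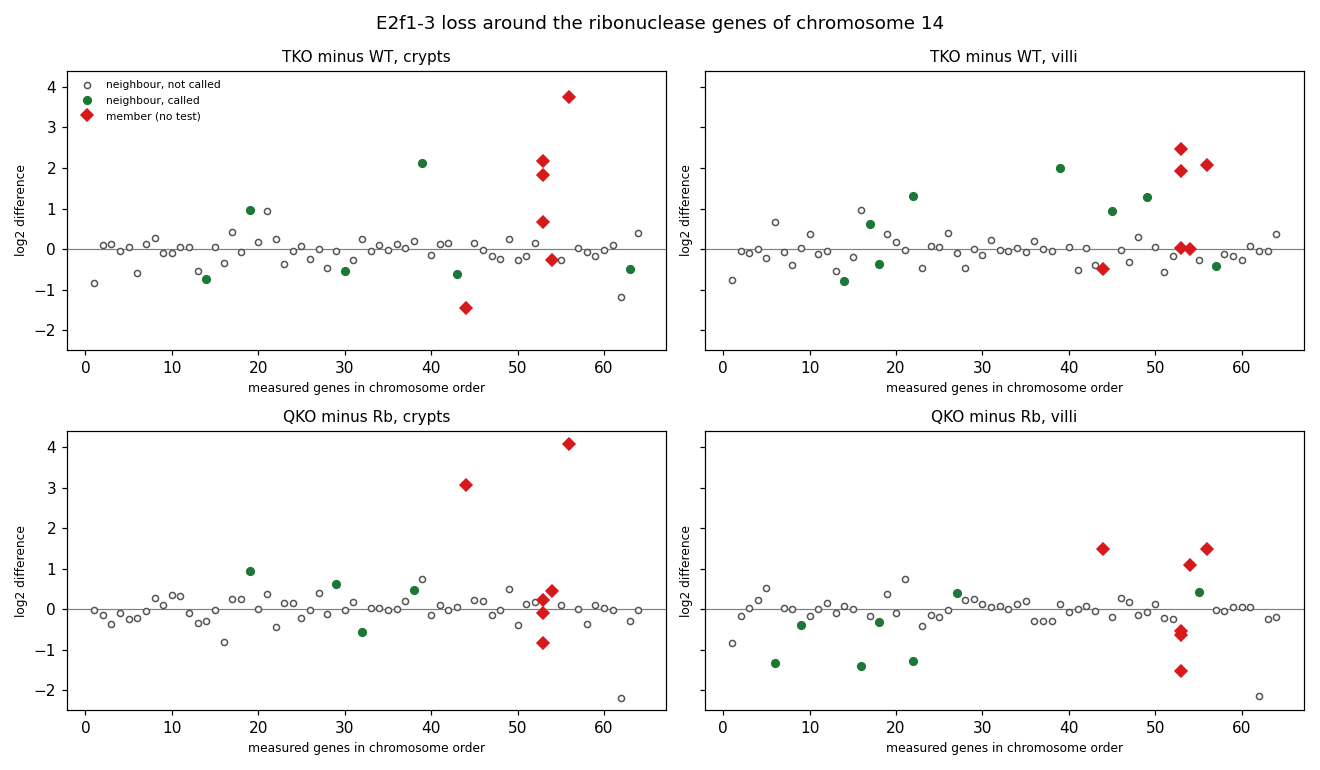
Log2 difference (vertical axis) of each measured gene of the window, in chromosome order (horizontal axis, rank), in 4 comparisons of E2f1-3 loss. Open circles are neighbours not called, filled circles neighbours called by limma, and diamonds the probe sets of the members, shown without a test. Rnase1 stands highest in both crypt panels, at 3.75 and 4.08, beside neighbours whose median is between -0.04 and 0.00.

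Other ribonucleases of the superfamily were measured by 8 probe sets of 7 genes. Rnase2a (3.16 to 3.74), Rnase2b (3.11 to 3.76), Rnase10 (3.19 to 3.91), Ang2 (3.08 to 3.84) and Rnase6 (3.54 to 4.49) were low on all 24 arrays, and Ang5 read 4.27 to 6.77. Within these low ranges Rnase2b was called lower in TKO than in WT villi (-0.43) and Rnase6 higher in QKO than in Rb villi (0.43). In all, of the 8 probe sets, 0 were called in TKO minus WT crypts, 1 in TKO minus WT villi (lower), 1 in QKO minus Rb crypts (lower) and 2 in QKO minus Rb villi (1 higher, 1 lower). Over all probe sets 6.77%, 6.38%, 14.1% and 17.1% were called, so these counts are near the background.

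Ang4, the Paneth cell angiogenin, was singled out after its values were seen, so its genotype differences are given without a test. Its probe set 1438364_x_at read 9.20, 9.10 and 8.44 in QKO crypts, 13.43, 13.39 and 12.37 in TKO crypts, 12.87, 13.20 and 9.87 in Rb crypts, and 12.19, 12.96 and 12.06 in WT crypts. In villi 1438364_x_at read 8.18, 6.80 and 6.54 in QKO, 12.73, 12.87 and 9.25 in TKO, 10.74, 9.69 and 10.98 in Rb, and 10.07, 10.28 and 9.72 in WT. In both compartments the 3 QKO arrays of 1438364_x_at lay below all others. By this probe set QKO minus Rb was -3.07 in crypts and -3.29 in villi, and QKO minus TKO was -4.15 and -4.44. By the second Ang4 probe set, 1440832_at, they were -2.18 and -2.14, and -1.52 and -1.89. With 1440832_at the villus arrays overlapped, at 8.41 to 10.34 in QKO and 8.44 to 12.37 in TKO. TKO minus WT crypts was 0.66 by 1438364_x_at and -1.17 by 1440832_at. Between compartments of WT intestine both probe sets were lower in villi than in crypts, by -2.38 ± 0.78 and -2.43 ± 0.74 (adjusted p = 0.0242 and 0.0163). The mean of 4 Paneth cell markers was 11.7 to 12.2 on the QKO crypt arrays, 11.4 to 12.3 on the TKO crypt arrays, 11.8 to 13.3 on the Rb crypt arrays and 13.0 to 13.5 on the WT crypt arrays.

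Which genes elsewhere in the genome were most like the members was measured by the root mean square difference of centred log2 profiles over the 24 arrays. For Rnase1, whose own profile had a root mean square of 1.61, the closest were Amph (0.711, chromosome 13), Hebp2 (0.907) and Wdfy1 (0.917), and the closest mirrored profile was that of the cyclin-dependent kinase inhibitor gene Cdkn2c (0.852, chromosome 4). Amph averaged 7.77 in QKO crypts, 7.55 in TKO crypts, 3.57 in Rb crypts and 3.95 in WT crypts. For Ccnb1ip1 (1.47) the closest were the pancreatic lipase relative Pnliprp1 (0.808), the carboxypeptidase gene Cpa1 (0.911), both on the list of acinar markers, and Piwil2 (0.930), a germline gene also on chromosome 14. Cpa1 averaged 7.35 in QKO crypts but 4.80 in QKO villi, 4.39 in TKO crypts and 4.19 in Rb crypts. For Ear3 (2.52) no named gene came close: the best, H2bc21, differed by 1.87, and the best mirrored one, ccdc198, by 1.83.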

How the data were processed

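Biotin-labelled RNA of crypts and villi was read on Affymetrix arrays, per the labels' protocols. The values deposited by the authors are log2 summaries per probe set, judged from their range; no label states the summarisation, the normalization or a genome build. Probe sets were named through the platform annotation, with symbols updated by gene identifier. All 24 arrays and 45037 probe sets (64 controls left out) entered a single limma fit (limma 3.58.1, R 4.3.3) that estimated a mean for every group and used an intensity trend. P-values were 2-sided and adjusted by Benjamini-Hochberg within each comparison, and a probe set was called at an adjusted p under 0.05. The number of arrays limits the precision. The fit was tested on simulated data.

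The genes and all lists were chosen with earlier results of these data known. TKO minus WT, QKO minus Rb and QKO minus TKO are therefore described for these genes without p-values. Counts past the threshold are given beside the shares of all probe sets, and nothing is read from them. The same holds for the interaction of QKO and TKO. The villus-crypt tests use the same arrays, so their p-values are not free of the choice of genes. The named neighbours are the 3 largest rises and 3 largest falls per comparison without overlap of arrays, and those called the same way in both genotype comparisons. Crypt and villus arrays of the same number deviated together in QKO (r = 0.50, 0.23 and 0.29) and TKO (0.55, 0.49 and 0.59) but not in Rb (0.02, -0.05 and -0.21) or WT (-0.03, 0.03 and 0.03), so that numbers pair samples in QKO and TKO only, by their values. Alternatives were quantile normalization, median centring, no trend, dim probe sets removed, 1 probe set per gene, array weights, a replicate block and the omission of single arrays and of 3 pairs of arrays. Promoters were read from RefSeq.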

Additional observations from a re-analysis of the deposited data

Results flagged for a closer look

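Of 98 pairs of contrasts looked at (7 probe sets in 14 pairs), 9 had opposite signs with no overlap of arrays in either contrast. The share over all probe sets was not computed, so nothing is read from this count. No p-value is given for these differences of differences. They were picked from many by their values, and some follow from the differences for which the genes were chosen.

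The villus-crypt difference of Rnase1 (1416523_at) was below 0 in QKO and above 0 in both other genotypes with which it was paired: QKO against WT gave -3.25 and QKO against Rb gave -2.60 on the log2 scale, and neither was tested. For Ear3 (1422412_x_at), QKO against TKO gave -1.36, but the TKO values lay among the unspiked controls. No TKO gradient can therefore be read for Ear3. For Ang, QKO against Rb gave -1.77 by 1438937_x_at and QKO against WT gave -1.11 by 1450717_at, both not tested.

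In the flagged contrasts of Ccnb1ip1 and Ang, the loss of E2f1-3 went with opposite shifts when Rb was lost and when it was present. Rnase1, in contrast, had higher means without E2f1-3 in both settings. For Ccnb1ip1 (1435998_at) the shift with Rb lost minus the shift with Rb present was 4.52 in crypts and 1.98 in villi. For Ang it was -3.01 in villi by 1438936_s_at and -3.45 in villi by 1438937_x_at. By the third Ang probe set, 1450717_at, TKO minus WT villi was 0.03, with overlapping arrays. These differences were not tested, since the members were chosen with their parts known. Array handling and the loss of E2f1-3 cannot be told apart in them.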

How the results depend on the processing

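Counts are of called probe sets among 7, or of called genes among 60 neighbours, by limma. The share of all probe sets called was not recorded for the alternatives. A changed count is therefore not read as a result about the members or the neighbours. Rb minus WT crypts had 1 in place of 0 without WT crypts 3 and Rb crypts 2 together. Rb minus WT villi had 2 with quantile normalization, 0 with median centring, 3 with array weights and 0 to 2 leaving out single arrays, in place of 1. Villi minus crypts in Rb had 0 with 1 probe set per gene, 2 with array weights, 2 with the replicate block and 0 to 2 leaving out single arrays, in place of 1. Villi minus crypts in QKO had 2 without QKO crypts 2 and QKO villi 3 together and 2 to 5 leaving out single arrays, in place of 4. The interaction of Rb and WT had 1 without WT crypts 3 and Rb crypts 2 together, that of QKO and TKO had 1 with array weights, and both had 0 to 1 leaving out single arrays. Among neighbours, TKO minus WT villi had 17 with array weights and 4 to 8 leaving out single arrays. QKO minus Rb crypts had 8 with median centring, 7 with no trend, 9 with dim probe sets removed, 7 with 1 probe set per gene, 10 with array weights, 7 without WT crypts 3 and Rb crypts 2, 8 without QKO crypts 2 and QKO villi 3, and 3 to 8 leaving out single arrays, in place of 4. QKO minus Rb villi had 4 to 8 leaving out single arrays. The replicate block moved no other count by over 1.5 times. Of 42 described member differences, 576 of 590 recomputed values moved by less than the replicate spread, 12 moved by more, and 2 changed sign: without QKO crypts 1 and 3, an alternative chosen after seeing the data, QKO minus Rb crypts was 0.044 for Ear3 and 0.32 for Ang 1450717_at. The causes were not tested. The 3 arrays a group, 1 probe set for most genes, probes that may match relatives, and array handling that ran with E2f status limit all values.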

Other observations

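One probe set with no gene name in the annotation used here, 1422411_s_at, followed Ear3 closely; it was picked after its values were seen and gets no gene name. It read 8.83, 9.58 and 8.49 in QKO crypts, 3.61, 3.74 and 3.44 in TKO crypts, 10.17, 9.75 and 9.53 in Rb crypts, and 9.19, 9.92 and 10.12 in WT crypts. In villi it read 7.82, 8.06 and 7.56 in QKO, 3.29, 3.06 and 3.47 in TKO, 9.07, 9.80 and 8.89 in Rb, and 9.19, 9.45 and 8.84 in WT. The root mean square difference between its centred profile and that of Ear3 over 24 arrays was 0.226, against 1.96 for the next probe set without a name. By array, all 6 TKO values were again below all 18 others.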
